A study of Mus musculus with 8 samples.

Results

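The genes described here are 32 mouse genes of the hypoxia response: the subunits of the hypoxia-inducible factor (HIF), the enzymes that sense oxygen, and genes known as targets of HIF. The list was chosen from knowledge of the pathway and from levels measured on these same 8 arrays, so the LPS difference and the spread among the immature samples are given as a description and support nothing. All 32 genes had at least 1 probe, with 54 probes in all and 15 genes carrying several. Of the 20884 genes with a matched probe, 12702 were tested, and 31 of the 32 hypoxia genes were among them. Plod2 was not tested, because neither group had its probe well above background on every array.

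HIF is a pair of proteins, an alpha subunit (HIF-1 alpha from Hif1a, or HIF-2 alpha from Epas1) and the stable partner ARNT. In the presence of oxygen, prolyl hydroxylases (the products of Egln1, Egln2 and Egln3) mark the alpha subunit for capture by the VHL ubiquitin ligase and destruction, and factor inhibiting HIF (Hif1an) blocks its transactivation domain. When oxygen is short the alpha subunit persists, and the pair binds hypoxia response elements and switches on genes for glucose use, mitophagy, collagen modification and blood vessel growth. In myeloid cells LPS is also known to raise Hif1a through NF-kB, and Egln3 is itself a HIF target that feeds back on the pathway.

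The arrays measured total RNA from dendritic cells grown from bone marrow progenitors of C57BL/6 female mice. For the 4 immature samples, monocytes were kept until day 6 in IL-4 and 10 ng/ml of GM-CSF. The 4 LPS samples were such cells given LPS at 50 ng/ml overnight and collected on day 7, so both groups share the cytokine culture. No cells without LPS were analysed at day 7, so LPS and the further night of culture cannot be told apart. Likewise the immature arrays lie in 1 row of the slide and the LPS arrays in the other, per the file headers, so slide row and treatment cannot be told apart. The labels give incubation with CO2 and no oxygen level, and do not say whether the replicates were separate animals or cultures, so the spread between them may be technical. In bulk RNA of this kind, fewer cells of a type and less RNA per cell cannot be told apart.

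Between 47.5% and 51.3% of the 59305 spots outside the controls were well above background on each array. All 9 dendritic cell markers were well above background on all 8 arrays. Their summed level was 1073 to 1140 times the array's 75th percentile signal in the immature group and 1159 to 1295 times in the LPS group. They did not move together, since the test described below called 4 of the 9 higher and 3 lower. Ccr7 was among the higher (log2 difference 2.12), and the lower were Itgax (-0.99), H2-Aa (-0.75) and Cd74 (-0.46). The 9 neutrophil markers with a probe summed to between 744 and 886 in the immature group and between 250 and 455 in the LPS group, and all 9 fell. The part of granulocyte RNA in the LPS differences given here was not tested. The macrophage markers summed to 363 to 429 and 336 to 395, which also hides opposite directions. Of the 6 tested, C1qa (-2.23) and C1qb (-2.13) were called lower and Adgre1 higher (0.94), and 3 were not called.

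To show the DNA in front of the genes that varied most, promoter sequences were taken from RefSeq (build GRCm38.p6), which held 26 of the 32 genes; Bhlhe40, Bnip3l, Epas1, Ndrg1, Plod2 and Zfp395 were not among them. The core of the hypoxia response element was searched in the 250 bases before each start as ACGTG or GCGTG on either strand, with overlapping matches merged. The 4 sequences that follow belong to the members with the widest spread over the immature arrays among those with a single listed start, and the fifth to the member with the narrowest. Each runs 5′ to 3′ on the gene's strand, and capitals mark the matches.
Egln3: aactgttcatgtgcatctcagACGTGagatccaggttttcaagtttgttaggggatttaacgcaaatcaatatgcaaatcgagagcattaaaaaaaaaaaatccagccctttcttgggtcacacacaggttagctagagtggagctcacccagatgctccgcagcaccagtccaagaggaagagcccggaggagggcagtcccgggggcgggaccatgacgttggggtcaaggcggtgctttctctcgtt
Ankrd37: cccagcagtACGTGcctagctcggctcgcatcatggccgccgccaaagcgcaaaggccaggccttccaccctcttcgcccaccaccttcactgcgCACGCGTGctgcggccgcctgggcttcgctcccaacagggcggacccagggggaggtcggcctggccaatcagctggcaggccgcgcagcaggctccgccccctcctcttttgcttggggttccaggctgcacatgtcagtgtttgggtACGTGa
Ddit4: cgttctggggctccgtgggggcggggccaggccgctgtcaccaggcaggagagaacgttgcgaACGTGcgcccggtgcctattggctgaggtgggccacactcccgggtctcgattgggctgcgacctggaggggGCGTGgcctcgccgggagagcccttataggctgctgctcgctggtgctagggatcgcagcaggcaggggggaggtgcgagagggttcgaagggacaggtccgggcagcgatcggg
Bnip3: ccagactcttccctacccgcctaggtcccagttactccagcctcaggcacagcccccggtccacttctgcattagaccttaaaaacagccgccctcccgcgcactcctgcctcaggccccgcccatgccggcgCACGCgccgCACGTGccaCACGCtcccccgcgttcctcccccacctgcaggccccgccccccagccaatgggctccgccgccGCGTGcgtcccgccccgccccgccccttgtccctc
Hif1an: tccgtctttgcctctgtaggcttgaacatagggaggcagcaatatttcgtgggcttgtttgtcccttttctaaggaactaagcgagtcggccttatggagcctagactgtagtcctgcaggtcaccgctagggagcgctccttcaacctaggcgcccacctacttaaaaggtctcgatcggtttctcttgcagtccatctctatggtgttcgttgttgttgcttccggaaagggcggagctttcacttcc
These windows lie at chr12:54203875-54204124 (minus strand) for Egln3, chr8:45999851-46000100 (minus) for Ankrd37, chr10:59951771-59952020 (minus) for Ddit4, chr7:138909507-138909756 (minus) for Bnip3 and chr19:44562604-44562853 (plus) for Hif1an. Egln3 had 1 match, 229 to 225 bases before the start. Ankrd37 had 3 and Ddit4 had 2. Bnip3 had 4 within its last 117 bases, among them the palindrome CACGTG at 108 to 103 bases before the start. Hif1an had none.

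At least 1 match stood before the start of 23 of the 26 genes (88.5%), against 59.2% of the 10185 tested genes with an entry and 41.5% of all 27025 genes in the table. A gene with several starts was counted if any of them had a match. Vegfa, for example, had 2 matches before 1 start and 0 before the other. On the gene's strand the start with 2 matches lies downstream of the start with 0, so Vegfa was counted through the downstream start alone. Counted by start, 28 of 37 member promoters held it (75.7%), against 53.6% of the promoters of tested genes and 38.6% of all promoters. The 3 genes without a match were Hif1an, Vhl and Mif, whose SD over the immature arrays was 0.05, 0.19 and 0.14. Genes with a match were narrow too, since Egln2 (1 and 4 matches at its 2 starts), Hif1a (2) and Arnt (1) had an SD of 0.08, 0.09 and 0.12. The motif holds CG, and the windows were richer in G and C in the members (median 61.6%) than in tested genes (59.2%) and in all promoters (52.4%). A match describes letters and is not a binding site. Since the list holds genes known as targets of HIF, a higher share in it was likely in advance and supports nothing.

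Levels are given as log2 of the signal relative to the 75th percentile of the array's signals, so that 0 is that percentile, and are compared for 1 gene between arrays and never between genes. Array values are listed for immature replicates 1 to 4 and then LPS replicates 1 to 4. A gene was called higher or lower when limma's moderated test over all 12702 genes gave a Benjamini-Hochberg adjusted p under 0.05.

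The immature arrays lay far apart in the levels of the hypoxia genes. The members' median SD over the 4 immature arrays was 0.74 on the log2 scale, against 0.18 for all genes tested, while over the 4 LPS arrays it was 0.15 against 0.13. The immature SD was the larger of the pair for 27 of the 31 tested members and for 61.4% of all genes. It exceeded 1 for 14 members, and all 14 ranked in the 100 widest of the 12702 genes. Over all genes, 0.921% had an SD above 1. No member had an SD above 1 over the LPS arrays.

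**Figure D1:**
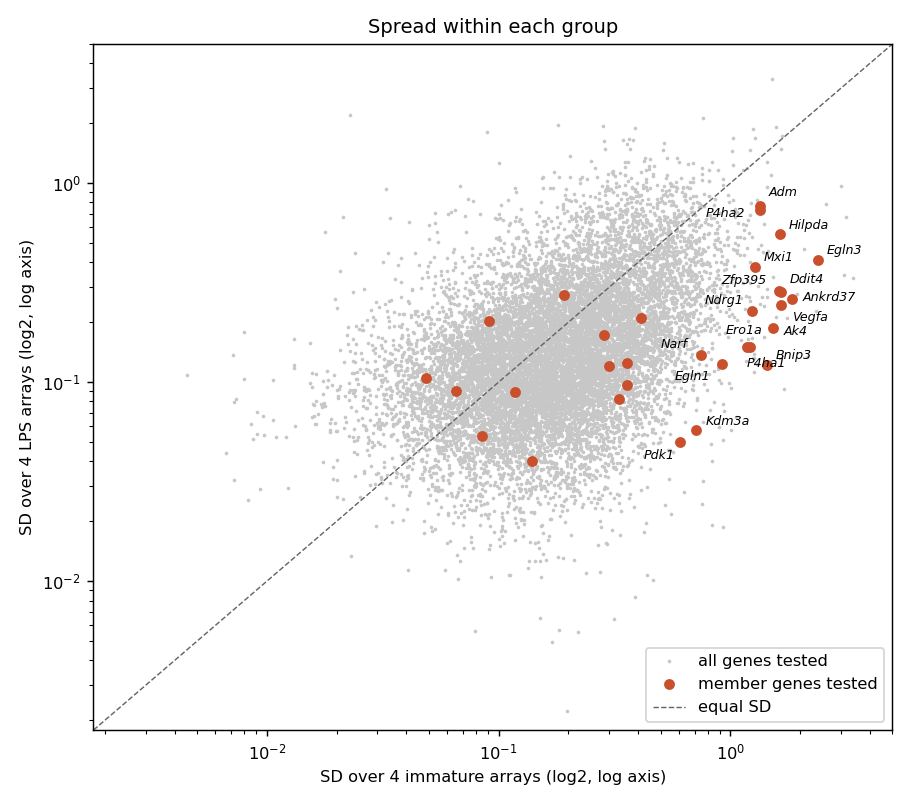
SD over the 4 LPS arrays (vertical axis) against SD over the 4 immature arrays (horizontal axis), both in log2 units on log axes, for the 12702 genes tested (grey) and the 31 tested hypoxia genes (orange, labelled above an immature SD of 0.5). The dashed line marks equal SD, and 27 of the 31 hypoxia genes lie to its right, with Egln3 farthest at 2.39.

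The order of the immature arrays was shared. Replicates 3 and 4 each lay above replicates 1 and 2 for 26 of the 31 tested members, against 27.7% of all genes tested. The opposite order, both below, held for 2 members and 35.6% of all genes. Over all genes, the second principal component (8.31% of the variance) parted the same arrays. On it immature replicates 1 and 2 scored -22.2 and -21.5 and replicates 3 and 4 scored 37.4 and 12.9. The first component (80.7%) parted LPS from immature arrays, and the LPS arrays scored 51.9 to 61.5 on it. There immature replicates 1 and 2 scored -62.5 and -62.3 and replicates 3 and 4 scored -42.9 and -55.2, nearer the LPS arrays. The members without replicates 3 and 4 on top were Hif1a, Epas1, Arnt, Hif1an and Egln2, all of them sensors or HIF subunits. Replicate 3 was the highest immature array for 23 members (35.2% of all genes) and replicate 4 for 6. Of the 47 member probes well above background on all 8 arrays, 39 showed that order. Among the 17 of them that were second or further probes of a gene, 14 did.

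The distance between 2 arrays was taken as their root mean square log2 difference over the tested members. Immature replicates 1 and 2 differed by 0.20 and replicates 3 and 4 by 0.46, while the pairs across them differed by 1.63 to 2.09. The LPS arrays differed among themselves by 0.27 to 0.49. Over all genes tested, the immature pairs differed by 0.22 to 0.57 and the LPS pairs by 0.25 to 0.44. There immature replicate 4 was about as far from replicate 3 (0.37) as from replicates 2 (0.38) and 1 (0.41). Replicate 3 differed from replicates 1 and 2 by 0.57 each, so the members' 2 pairs were not as clear over all genes. The 75th percentile signal was 491, 478, 458 and 450 on immature replicates 1 to 4, and the share of spots well above background 51.2%, 50.1%, 47.7% and 51.3%. Without any scaling between arrays the members' median immature SD was 0.69. Summed levels of the 10 marker lists for other and expected cell types gave replicates 3 and 4 above 1 and 2 for 0 of 10 lists and below them for 1. The sums hide single markers that parted the same arrays. Of the 9 dendritic cell markers 2 had replicates 3 and 4 above 1 and 2 and 4 had them below. Of the 4 plasmacytoid dendritic cell markers 2 had them above and 1 below. Neutrophil markers summed to 744, 804, 790 and 886 on the 4 immature arrays. Gene by gene, however, 5 of the 9 neutrophil markers had replicates 3 and 4 above 1 and 2, and all 9 were highest on replicate 4. The part of these cells in the members' spread was not tested.

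**Figure D2:**
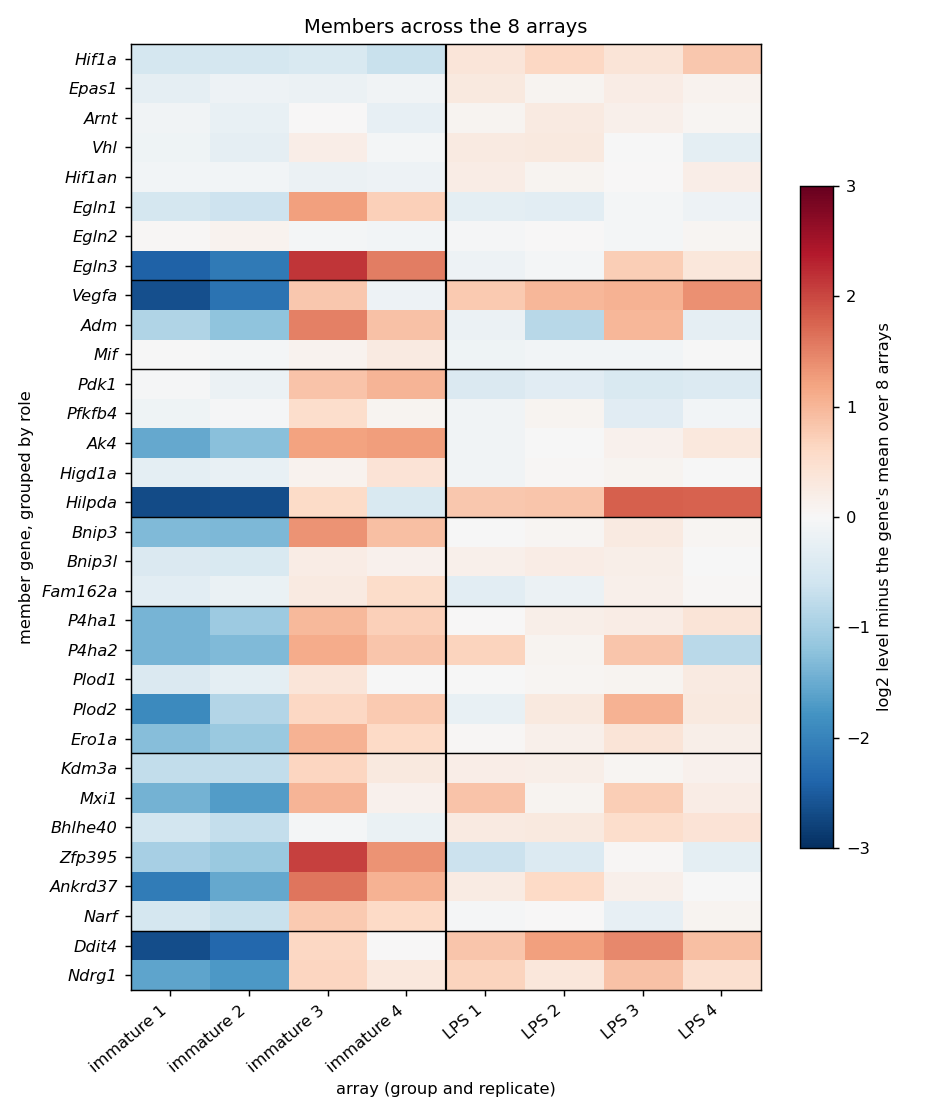
Level of each of the 32 hypoxia genes (rows, grouped by role) on each of the 8 arrays (columns), as log2 units above (red) or below (blue) that gene's mean over all arrays. Immature replicates 1 and 2 are blue and replicates 3 and 4 red for most rows below the HIF subunits, while the LPS arrays mostly lie between them.

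Set against that spread, all 4 LPS arrays lay inside the range of the immature arrays for 17 of the 31 tested members, against 11.2% of all genes tested. The LPS and immature arrays did not overlap for 8 members, against 52.4% of all genes. Of the 31 members 8 were called higher and 1 lower in the LPS samples. Over all genes 56.1% were called, 31.5% higher and 24.6% lower, and since the members were chosen with this contrast known nothing is read from their count. The members' median log2 difference was 0.27, against 0.06 over all genes. It was 0.0059 without immature replicate 1, 0.07 without replicate 2, 0.39 without replicate 3 and 0.37 without replicate 4.

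Among the HIF subunits, Hif1a had the largest increase, measured on its only probe. It read 2.65, 2.66, 2.72 and 2.50 on the immature arrays and 3.55, 3.80, 3.57 and 3.98 on the LPS arrays. Every LPS array was above every immature array and the immature arrays stayed close together, including the pair that parted for most targets. Hif1a rose by 1.09 ± 0.11 (log2, SE, n = 4 per group), or 2.13-fold.

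Epas1 depended on the probe. Its brightest probe read 2.66, 2.77, 2.75 and 2.81, then 3.21, 3.01, 3.14 and 3.04, and was called higher by 0.35 ± 0.07. A second probe read -1.36, -1.31, -0.86 and -1.69, then -2.66, -3.62, -2.15 and -2.04, a difference of -1.31. The groups were apart on both probes, in opposite directions, so no single direction holds for Epas1. The remaining probe was not well above background on any LPS array.

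Arnt, the partner of both alpha subunits, read 1.5, 1.36, 1.6 and 1.35, then 1.69, 1.86, 1.74 and 1.66, and was called higher by 0.28 ± 0.09. Its second probe also lay higher, by 0.52. The lowest LPS array was only just above the highest immature array on the brighter probe. The call was lost without immature replicate 2 (0.25), immature replicate 4 (0.25) or LPS replicate 2 (0.24).

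The inhibitor Hif1an read -1.06, -1.04, -1.14 and -1.12, then -0.74, -0.88, -0.96 and -0.75, and was called higher by 0.26 ± 0.08. Without LPS replicate 1 the difference was 0.23 and was not called. The calls of Epas1, Arnt and Hif1an were lost when arrays were scaled to their median (differences of 0.18, 0.11 and 0.09) or not scaled (0.14, 0.08 and 0.05), whereas that of Hif1a was kept in all 20 alternatives. Vhl, the recognition part of the ubiquitin ligase, read 4.01, 3.88, 4.33 and 4.08, then 4.41, 4.43, 4.12 and 3.85, and the groups overlapped.

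The 3 prolyl hydroxylases behaved in 3 ways. Egln3 read 0.52, 0.83, 5.08 and 4.48 on the immature arrays and 2.79, 2.89, 3.69 and 3.28 on the LPS arrays. The immature arrays fell into a low and a high pair, 23.5-fold apart at the extremes, and every LPS array lay in the gap between the pairs. Its SD over the immature arrays, 2.39, was the sixth widest of all genes tested (rank 6), and the difference between groups was 0.44 ± 1.03. The second Egln3 probe gave the same picture, with -0.39, 0.00, 4.03 and 3.47, then 1.95, 1.87, 2.77 and 2.47.

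Egln1, the main oxygen sensor of the family, read -1.47, -1.56, 0.29 and -0.22, then -1.23, -1.26, -1.0 and -1.09. Here too the LPS arrays fell between the immature pairs, but close to the lower one. Egln2 read 5.00, 5.06, 4.89 and 4.89, then 4.92, 4.98, 4.90 and 5.02. Its 8 values lay closer together than those of Egln1 or Egln3, the groups overlapped, and the difference was -0.01 ± 0.07.

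**Figure D3:**
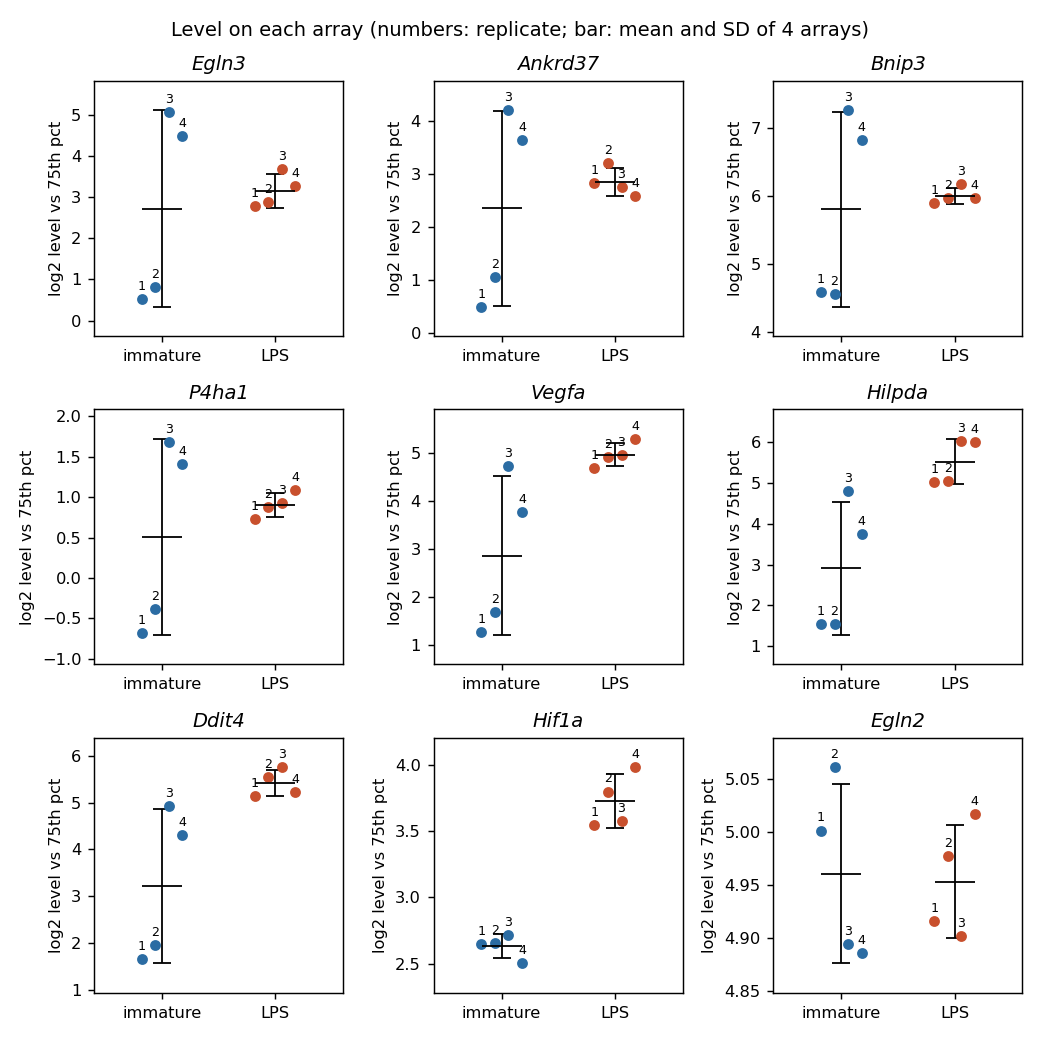
Level on each array (log2 relative to the array's 75th percentile, points numbered by replicate) of 9 hypoxia genes in the immature (blue) and LPS (orange) samples, with bars for the mean and SD of 4 arrays; each panel has its own scale. Egln3, Ankrd37, Bnip3 and P4ha1 show the LPS arrays between a low and a high immature pair, Vegfa, Hilpda and Ddit4 show them at or above the high pair, and Hif1a and Egln2 show no split of the immature arrays of that size.

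Of the secreted factors, Vegfa, the growth factor for blood vessels, read 1.27, 1.70, 4.73 and 3.76 on the immature arrays and 4.69, 4.92, 4.95 and 5.29 on the LPS arrays. Immature replicate 3 stood just above the lowest LPS array, so the groups overlapped, while the immature arrays themselves were 10.98-fold apart. The difference was 2.10 ± 0.71, called higher. A second probe gave a difference of 1.87. Leaving out immature replicate 1 (1.56), immature replicate 2 (1.71), or LPS replicate 1 (2.19), 2 (2.11), 3 (2.10) or 4 (1.99) lost the call.

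Adm, which encodes the vasodilator peptide adrenomedullin, read -3.70, -4.01, -1.27 and -1.91, then -2.96, -3.63, -1.81 and -3.06. All LPS arrays lay inside the immature range, and LPS replicate 3 stood above the other LPS arrays. Mif, a cytokine stored by macrophages, read 8.09, 8.05, 8.21 and 8.36, then 7.98, 8.01, 8.02 and 8.08, and was not called. Its 2 other probes differed by -0.19 and -0.23. Mif was called lower when arrays were scaled to their median (-0.33) or not scaled (-0.36).

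The metabolic genes held the largest increase and the only call in the other direction. Hilpda, which blocks lipolysis and keeps fat in lipid droplets, read 1.54, 1.55, 4.79 and 3.76 on the immature arrays and 5.03, 5.06, 6.02 and 5.99 on the LPS arrays. All LPS arrays were above all immature arrays, by little for immature replicate 3 and by much for replicates 1 and 2. Hilpda rose by 2.61 ± 0.74 (6.12-fold), its second probe differed by 2.60, and the call held in 19 of 20 alternatives. Averaging replicates 1 and 2 of each group, as if each pair were 1 sample, lost the calls of Hilpda (2.32), Vegfa (1.69) and Ddit4 (1.76) together.

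Pdk1, the kinase that keeps pyruvate out of the mitochondrion, read 1.06, 0.93, 1.95 and 2.11, then 0.66, 0.75, 0.63 and 0.68. The LPS arrays were tightly grouped below all immature arrays, and Pdk1 fell by 0.83 on the log2 scale (SE 0.26). The call was lost without immature replicate 3 (-0.69), immature replicate 4 (-0.63), or LPS replicate 1 (-0.83), 2 (-0.86), 3 (-0.82) or 4 (-0.83).

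Ak4, a mitochondrial adenylate kinase, read 1.07, 1.36, 3.83 and 3.87, then 2.51, 2.61, 2.75 and 2.94. As for Egln3, every LPS array lay in the gap between the immature pairs. Higd1a, a survival factor of the inner mitochondrial membrane, spanned 5.97 to 6.68 in the immature samples and 6.16 to 6.36 in the LPS samples. Pfkfb4, which sets the level of the activator of phosphofructokinase, spanned 3.27 to 3.91 and 3.06 to 3.47, and neither gene was called, though Pfkfb4 was called lower without scaling (-0.42).

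Bnip3 and Bnip3l encode receptors that hand mitochondria to autophagy. Bnip3 read 4.59, 4.56, 7.25 and 6.82, then 5.89, 5.97, 6.17 and 5.97. The 4 LPS arrays lay within 1.22-fold of each other, in the gap between the immature pairs, whose extremes were 6.47-fold apart, and the group difference was 0.19 ± 0.61. Its 2 other probes also had the LPS arrays between the immature pairs, with differences of 0.28 and 0.45.

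Bnip3l read 4.83, 4.81, 5.49 and 5.40, then 5.43, 5.49, 5.44 and 5.27, with the LPS arrays beside the upper immature pair. Its 4 probes disagreed on the group difference, which was 0.27, 0.22, -0.19 and 0.18, and agreed that replicates 3 and 4 were the high immature arrays. Fam162a, a mitochondrial protein of hypoxic cell death, spanned 5.59 to 6.47 and 5.60 to 6.07.

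Of the enzymes that modify collagen and fold secreted proteins, none of the 4 tested was called, and P4ha1 and Ero1a repeated the pattern of Bnip3. P4ha1, the catalytic subunit of collagen prolyl hydroxylase, read -0.68, -0.39, 1.69 and 1.41, then 0.73, 0.88, 0.93 and 1.09. Ero1a (listed as Ero1l), the oxidase that drives disulfide formation, read 0.08, 0.25, 2.40 and 1.97, then 1.40, 1.51, 1.76 and 1.55. For both genes all LPS arrays lay between the immature pairs.

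P4ha2, the second form of that subunit, read -0.78, -0.70, 1.72 and 1.43, then 1.27, 0.69, 1.44 and -0.19. Its LPS arrays were spread more widely than those of P4ha1, with replicate 4 lowest and replicate 3 just above immature replicate 4. Plod1, a lysyl hydroxylase, spanned -0.20 to 0.61 and 0.23 to 0.53, with every LPS array above all immature arrays but replicate 3. Plod2, another lysyl hydroxylase, was well above background on 2 immature and 3 LPS arrays and carries no difference here.

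The regulators of transcription and chromatin held 1 call among 6 genes. Bhlhe40, a transcriptional repressor, read 3.65, 3.49, 4.13 and 4.0, then 4.47, 4.49, 4.73 and 4.61. All LPS arrays were higher than all immature arrays, although the immature arrays kept the order of the other targets. Bhlhe40 rose by 0.76 ± 0.15 (1.69-fold) and was called in all 20 alternatives.

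Ankrd37, a small ankyrin protein, read 0.50, 1.06, 4.19 and 3.63, then 2.83, 3.20, 2.75 and 2.57. The LPS arrays lay between the immature pairs, and its immature SD of 1.84 was second among the members after Egln3 (rank 11 of all genes). Zfp395, a zinc finger protein, read -2.94, -3.05, 0.11 and -0.59, then -2.59, -2.35, -1.90 and -2.25, with the LPS arrays nearer the low pair. Its 3 other probes were not well above background on any LPS array.

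Kdm3a, a histone demethylase that uses oxygen, read 1.89, 1.89, 3.26 and 2.93, then 2.82, 2.80, 2.70 and 2.75. Its LPS arrays sat within 1.09-fold of each other, just under the upper immature pair. Narf spanned -0.44 to 0.99 and -0.03 to 0.28. Mxi1, an antagonist of MYC, spanned -5.79 to -3.10 and -4.03 to -3.26 and was well above background on 2 of 4 immature arrays, so it entered the test through the LPS group alone.

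Ddit4, an inhibitor of mTORC1 that responds to stress, read 1.65, 1.96, 4.92 and 4.31, then 5.14, 5.54, 5.75 and 5.23. The LPS arrays were above all immature arrays, with immature replicate 3 close beneath them. The difference was 2.20 ± 0.71, called higher. It was not called without immature replicate 1 (1.68), immature replicate 2 (1.79), or LPS replicate 1 (2.30), 2 (2.16), 3 (2.09) or 4 (2.27).

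Ndrg1, a growth and stress gene of differentiating cells, read 2.86, 2.70, 5.06 and 4.74, then 5.08, 4.77, 5.30 and 4.92. The LPS arrays matched the upper immature pair, and the difference of 1.18 ± 0.54 was not called. It was called without immature replicate 3 (1.58), as were Mxi1 (1.47) and Plod1 (0.36), which brought the members called higher to 11. For Mxi1 that difference rests in part on immature signals not well above background.

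**Figure D4:**
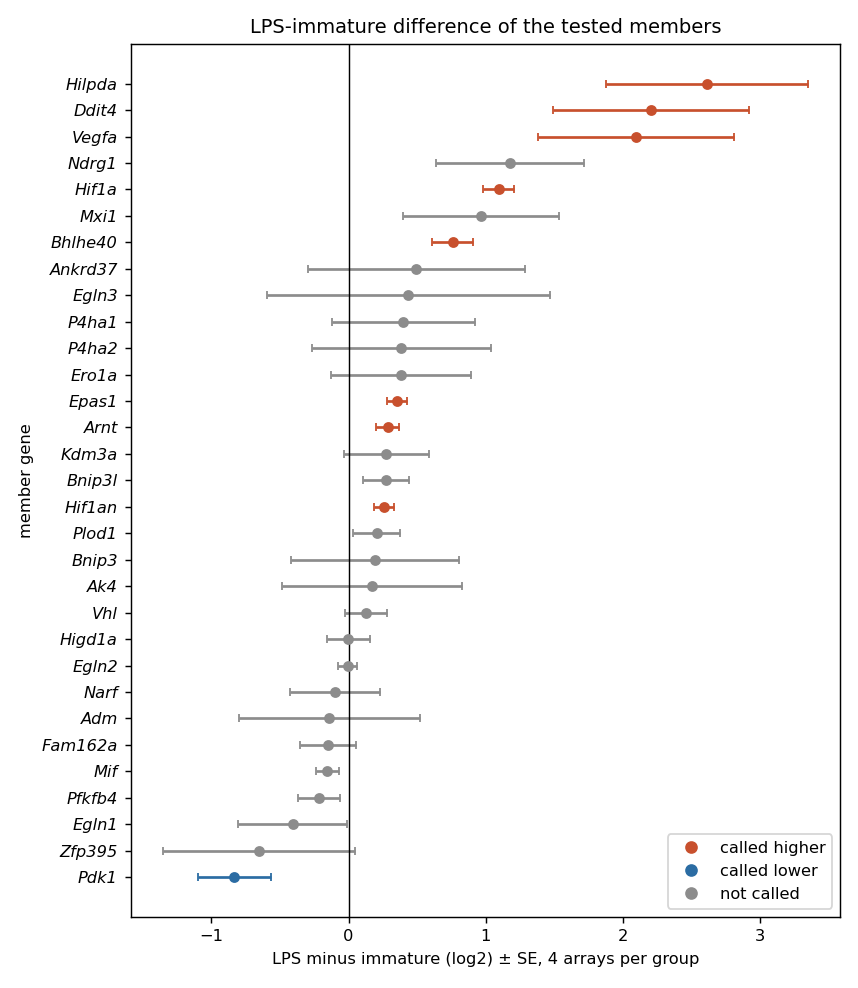
LPS minus immature difference (log2, horizontal axis) of the 31 tested hypoxia genes, with SE bars from limma over 4 arrays per group, coloured by call. Hilpda, Ddit4 and Vegfa have the largest differences and wide errors (2.61 ± 0.74, 2.20 ± 0.71 and 2.10 ± 0.71), while Hif1a combines 1.09 with an SE of 0.11.

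For the wider pathway, 3 lists of further genes with no member in them were examined. Of 17 tested HIF regulators (18 listed) 5 were called higher and 4 lower (52.9%, against 56.1% of all genes). Their median difference was 0.11, against 0.06 for all genes. Siah2, a ubiquitin ligase that degrades prolyl hydroxylases, fell by 1.42 (SE 0.14), from 1.59, 1.62, 1.00 and 1.51 to -0.07, -0.02, 0.04 and 0.07. Cited2, which competes with HIF for the coactivator p300, fell by 0.83 (SE 0.12). Siah1a, the paralog of Siah2, rose by 0.79 ± 0.14, and Eloc, the elongin C of the VHL complex, rose by 0.69 ± 0.07.

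All 20 glycolytic HIF targets were tested, with 4 called higher and 4 lower (40%, against 56.1% of all genes) and a median difference of 0.09. Pfkfb3, the inducible activator of phosphofructokinase, rose by 2.03 ± 0.36, and its immature arrays, at 2.56, 2.53, 4.19 and 3.64, had the order of the members. The enolase Eno2 rose by 1.71 ± 0.11. Slc2a3, a glucose transporter, fell by 1.39 (SE 0.44), from 0.77, 0.74, 2.68 and 2.21 to 0.09, -0.01, 0.63 and 0.14. Its call was lost without immature replicate 4 (-1.18) or LPS replicate 1 (-1.35), 2 (-1.31) or 4 (-1.37). The aldolase Aldoc fell by 0.70 (SE 0.15). The immature SD was the larger for all 20 glycolytic genes (61.4% of all genes), and replicates 3 and 4 were the upper immature arrays for 17 of them (27.7% of all genes).

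Of 18 tested other HIF targets (22 listed) 5 were called higher and 4 lower (50%, against 56.1% of all genes), a median difference of 0.25. Replicates 3 and 4 lay above 1 and 2 for 14 of them, against 27.7% of all genes. Lox, which cross-links collagen, was not well above background on any immature array and entered the test through the LPS group alone. It was at least 5.03-fold higher in the LPS samples, against the lowest signal called above background on the immature arrays. Tfrc, the transferrin receptor, fell by 2.01 (SE 0.35), and Ppfia4, a liprin, fell by 3.11 (SE 0.14). In all 3 lists together 36 of 55 tested genes shared the members' order of the immature arrays (65.5%, against 27.7% of all genes).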

How the data were processed

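The 8 samples were each hybridised to a 1-colour Agilent array after Cy3 labelling, per the labels. The authors' deposited values are spot intensities from Agilent Feature Extraction 11.0.1.1, per the file headers, with the background subtracted and no scaling between arrays. The deposited files also hold other columns, flags of 0 or 1 per the file headers, for spots well above background, saturated or outlying. Spots flagged as outliers (122 to 206 per array) were left out, and no spot was saturated.

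The log2 processed signals of a probe's spots were averaged and the array's 75th percentile subtracted. Of 55681 probes, 27509 matched 1 gene symbol through RefSeq transcript accessions, and each gene took its brightest probe. Genes well above background on all 4 arrays of a group were tested with limma 3.58.1 in R 4.3.3 (lmFit and eBayes, two-sided, statmod 1.5.0, version 1.17.8 of data.table), adjusted over all 12702 genes, after the script had been tested on simulated data. SE values come from that fit. Figures used matplotlib 3.10.9, numpy 2.4.6 and pandas 2.3.3 in Python 3.11.15.

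The members, related lists and 10 marker lists were chosen with earlier results of these data known. All members are named whatever their result, and from each related list the 2 called genes with the largest increase and the 2 with the largest decrease. A single gene that this rule picks is not reported here. A gene well above background on no array of a group is given as a bound. The replicate numbers were not taken as pairs of samples in the main fit. The deviations of same-numbered arrays correlated at 0.19, 0.02, 0.05 and -0.10, which cannot show whether they shared an animal or culture. Alternatives to these choices covered scaling, background correction, the filter, the choice of probe, outlier spots, the replicate block, averaging replicates 1 and 2, trended robust eBayes and leaving out each array. Positions are given for the printed promoter windows alone, on the RefSeq build, and not for probes, whose build differs. The number of arrays limits the precision.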

Additional observations from a re-analysis of the deposited data

Results flagged for a closer look

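Eno2, a neuronal-type enolase among the related glycolytic genes, had 1 immature array apart from the others. Immature replicate 3 was the highest at -1.87 on the log2 scale, and the nearest other immature array was at -2.20, so that gap made up nearly the whole range of the group. All 4 LPS arrays were higher still, at -0.55 to -0.31. Chance alone marks about 1 in 20 groups of 4 in this way, and 1 of the 88 groups examined was marked here.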

How the results depend on the processing

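The members' median SD ranged from 0.67 to 0.83 over the immature arrays and from 0.14 to 0.20 over the LPS arrays in 17 alternatives, of which the 8 that left out an array were chosen after seeing the data. Of the 9 called members, Hif1a and Bhlhe40 kept their call in all 20 alternatives and Hilpda in 19, whereas Vegfa and Ddit4 kept it in 13. The limma adjusted p of Vegfa ranged from 0.00425 to 0.123 and that of Ddit4 from 0.00589 to 0.109. Scaling to the array median moved the median difference of all genes from 0.06 to -0.11, and no scaling moved it to -0.15. Of all genes, 3995 were called higher and 3126 lower, against 2631 and 4136 with median scaling and 2428 and 4443 without scaling. Members called were then 5 higher and 2 lower, or 5 higher and 3 lower, and related genes called higher were 8 under both, against 14, with 20 called lower without scaling, against 12. Without the filter on dim probes 7647 genes were called higher, where all 20884 genes were tested. With replicates 1 and 2 of each group averaged, 3 members were called higher, from fewer samples, and Hilpda, Vegfa, Ddit4, Arnt and Hif1an lost their calls. Leaving out 1 array at a time gave 5 to 11 members called higher and 0 to 1 lower. Epas1 turned to -0.50 with the mean of its probes, where one probe lies opposite the other. The causes of the other shifts were not tested. With the replicate block the same 9 members were called, 8 higher and 1 lower, and 3640 and 2971 of all genes. A match of probes by gene name was not run. Dim signal over background limits Plod2, Mxi1 and Lox.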

Other observations

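Several genes outside the hypoxia list varied as widely as its members over the immature arrays; they were chosen after their values were seen. Hif3a, another HIF alpha subunit, read -4.93, -5.18, 0.20 and 0.02 on immature replicates 1 to 4 and -3.73, -3.68, -1.71 and -3.46 on the LPS arrays, and was well above background on 3 of the 4 immature arrays. The atypical chemokine receptor Ackr3 had the widest immature SD of all genes tested, 3.39, against 0.33 over the LPS arrays. Id3, an inhibitor of basic helix-loop-helix factors, had an immature SD of 2.33, and Nos2, the inducible nitric oxide synthase, 1.70 against 0.09 over the LPS arrays.

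The other marker lists gave summed levels, relative to the array's 75th percentile, between 111 and 125 in the immature group and between 126 and 139 in the LPS group for plasmacytoid dendritic cells. Mast cell and basophil markers summed to 4.70 to 7.89 and 6.15 to 8.16. That sum hides opposite directions, since Cpa3 (log2 difference -1.96), Mcpt8 (-2.13) and Fcer1a were called lower and Kit higher (1.93). T cell markers summed to 3.82 to 4.67 and 4.86 to 5.30, with 2 of 7 T cell markers on no array above background. Among them Cd3d was called lower and Lck higher, and Cd3e and Cd4 were not called. B cell markers summed to 0.758 to 2.79 and 0.570 to 1.64, natural killer cell markers to 0.629 to 0.676 and 0.378 to 0.501, stromal markers to 0.147 to 0.351 and 0.499 to 1.15, and erythroid markers to 0.153 to 0.207 and 0.0686 to 0.112. Of the 4 stromal markers only Dcn was called higher, Col1a2 was not called, and Col1a1 and Col3a1 were not tested. Only 1 of the 4 was well above background on all immature arrays.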
